A study of Mus musculus with 8 samples.

Results

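Voltage-gated sodium channel subunits were followed in whole hearts of mouse embryos, as 8 listed genes: the pore-forming alpha subunits Scn1a, Scn3a, Scn4a, Scn7a and Scn10a and the accessory beta subunits Scn2b, Scn3b and Scn4b. A probe belonged to a gene when the RefSeq accession printed beside it on the array maps to that gene. Every such probe was kept. This gave 10 probes of 7 genes, out of 41174 non-control probes, of which 28223 could be named for 19096 genes. No probe matched Scn4b. The series compared 4 wild-type (WT) hearts with 4 hearts labelled SIRT1 KO, all from C57BL/6 embryos (C57BL/6J in the study's methods) at E18.5, shortly before birth, of mice kept on chow. Per the study's methods, the knockout is a whole-body germ-line deletion and embryos came from heterozygous crosses. A figure legend of the study gives 4 embryos per genotype, taken here as 1 embryo per array. RNA of the whole organ was labelled with 1 dye and hybridised to a whole-genome oligonucleotide array. The comparison asks whether transcripts of these subunits differed between hearts with and without SIRT1, a nuclear protein deacetylase.

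A voltage-gated sodium channel opens when the membrane depolarises and lets sodium into the cell, which makes the fast upstroke of the action potential in cardiac and skeletal muscle and in neurons. The alpha subunit is the pore and carries the voltage sensors. Beta subunits are small membrane proteins with an immunoglobulin-like outer domain. They adjust the gating and surface level of the alpha subunit and also act in cell adhesion. In the heart, sodium current sets how fast excitation spreads.

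Levels are log2 signal minus the log2 of the same array's 75th percentile, which was 939 to 1033 intensity units on the WT arrays and 777 to 906 on the arrays labelled SIRT1 KO. Between 24489 and 26733 probes per array were well above background and none was saturated. The WT hearts were all on 1 slide and the hearts labelled SIRT1 KO on the other, scanned on another day, so slide, scan and genotype cannot be told apart in any difference below. No probe of the targeted gene passed as lower in the hearts labelled SIRT1 KO. One Sirt1 probe (A_52_P358612) was higher in the hearts labelled SIRT1 KO by 0.54 on the log2 scale (adjusted p = 0.0323, limma), a call kept in 2 of 8 fits with 1 array left out and in 6 of the 11 other settings, with an adjusted p of 0.117 by limma without scaling. The other (A_51_P141152) differed by -0.11 (adjusted p = 0.589, limma). Where these probes lie relative to the deleted part of the gene was not analysed here, so genotype was taken from the labels alone. All 10 cardiomyocyte markers were well above background on all 8 arrays, and none of them passed the test by its brightest probe.

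Of the subunits measured, 2 differed between genotypes, in opposite directions. Scn3b, a beta subunit, fell to 0.676 of its WT signal in the hearts labelled SIRT1 KO, and Scn4a, the alpha subunit known from skeletal muscle, rose 1.42-fold. Scn10a and Scn2b were measured on all 8 arrays and did not pass the test. Scn1a, Scn3a and Scn7a gave no signal well above background. Of the 10 member probes, 4 met the signal filter (flagged by the scanner software as well above background on 4 or more arrays) and were tested, 1 for each of the 4 measured genes, and 2 passed an adjusted p of 0.05, 1 higher and 1 lower. Over all 25615 probes tested, 4.88% passed in either direction, 3.97% as higher and 0.910% as lower. The genotypes did not overlap for 2 of the 4 member probes, against 13.7% of all probes tested (8.63% higher and 5.11% lower). The median log2 fold change over all probes tested was 0.01.

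**Figure D1:**
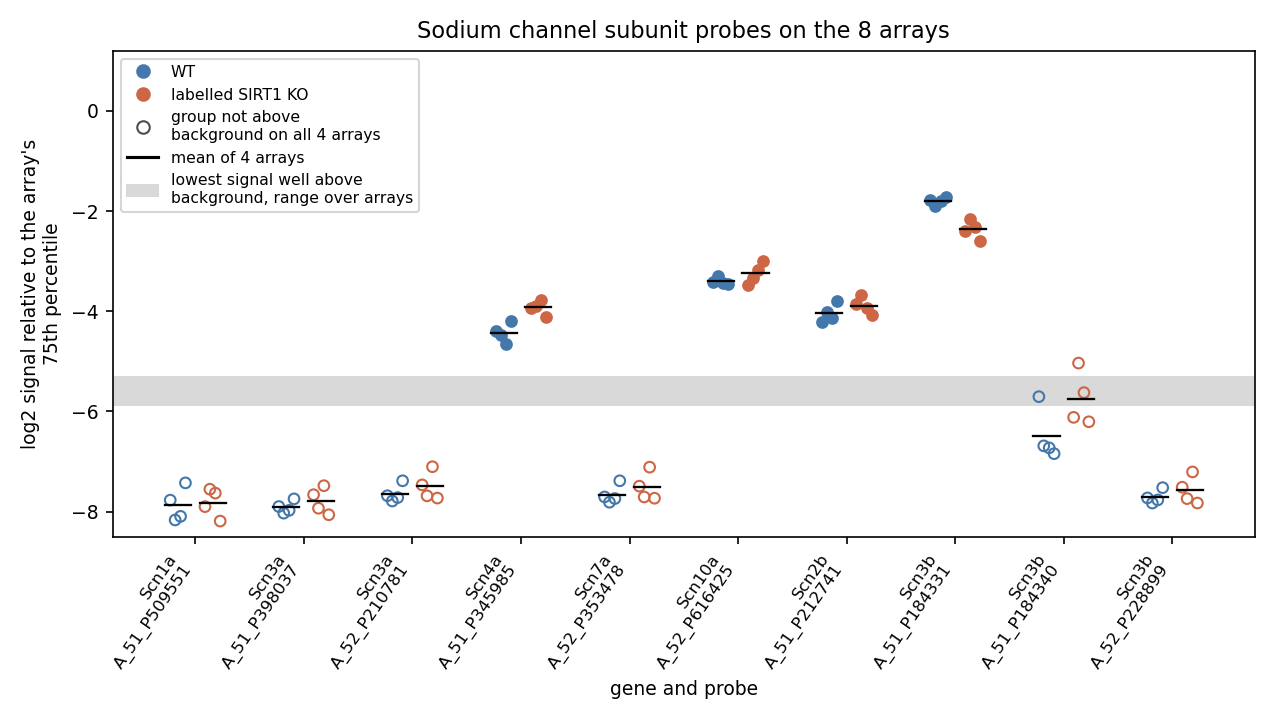
Log2 signal relative to the array's 75th percentile for each of the 10 subunit probes, 1 point per array, with WT on the left and hearts labelled SIRT1 KO on the right of each pair. Bars are means of 4 arrays, open points mark a group not well above background on all 4 arrays, and the grey band spans, over the arrays, the dimmest signal that was well above background. Scn3b (A_51_P184331) and Scn4a are separated between genotypes, in opposite directions, and 5 probes lie below -7 on every array. Levels of different probes cannot be compared with each other.

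Among the alpha subunits, Scn4a forms the main sodium channel of adult skeletal muscle. Its probe (A_51_P345985) read -4.40, -4.48, -4.66 and -4.18 in WT replicates 1 to 4 and -3.93, -3.89, -3.77 and -4.12 in the hearts labelled SIRT1 KO. Every WT value lay below every value of the other group, but WT replicate 4 and SIRT1 KO replicate 4 were only narrowly apart. The means were -4.43 ± 0.20 and -3.92 ± 0.14 (SD, n = 4 each). The log2 fold change was 0.51 (SE 0.12, 95% interval 0.245 to 0.769), with an adjusted p of 0.0413 by limma. The exact two-sided permutation test over the 8 arrays gave p = 0.0286, the smallest that 4 against 4 allows. In a whole heart, a change in the number of cells of a type and a change in RNA per cell cannot be told apart, for this gene and those below.

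The Scn4a signal was dim and its call depended on the scaling and on other settings. The intensities before scaling were 40.1 to 51.7 units in WT and 49.8 to 60.9 in the hearts labelled SIRT1 KO, and these ranges overlap. The probe belongs to the 8538 dimmest probes tested, of which 7.75% passed as higher and 1.03% as lower. With no scaling the log2 fold change was 0.29 (adjusted p = 0.0740, limma) and with quantile normalization 0.34 (adjusted p = 0.155, limma). The call was kept without WT replicate 4 or SIRT1 KO replicate 4. It was lost on leaving out any 1 of the other 6 arrays, with adjusted p-values up to 0.109 by limma. Of the 11 other settings, 4 kept the call. At an unchanged log2 fold change of 0.51 it was lost without the filter on dim probes (adjusted p = 0.0832, limma). The methods' one-factor analysis of variance also lost it (adjusted p = 0.0998).

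Scn10a, the tetrodotoxin-resistant alpha subunit best known from sensory neurons, was measured by A_52_P616425. It read -3.41, -3.30, -3.45 and -3.46 in WT and -3.47, -3.33, -3.18 and -2.99 in the hearts labelled SIRT1 KO. The groups overlap, with 2 SIRT1 KO replicates above all WT hearts and the others inside or just under the WT range. The log2 fold change was 0.16 (SE 0.11, 95% interval -0.081 to 0.405), with an adjusted p of 0.414 by limma and an exact permutation p of 0.257. A rise of up to 1.32-fold or a fall to 0.946 of the WT signal lies within that interval.

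The other alpha subunits had only background signal. Scn1a and Scn3a are alpha subunits of central neurons, and Scn7a is the atypical family member that senses extracellular sodium. Their probes, 1 for Scn1a, 2 for Scn3a and 1 for Scn7a, read between 2.96 and 5.66 intensity units over all 8 arrays. The lowest signal called well above background was 14.8 to 20.1 units per array. The Scn7a probe, one Scn3a probe (A_52_P210781) and one Scn3b probe (A_52_P228899) ran together from array to array, within 0.137 of each other on the log2 scale on every array, which leaves no level of their own to compare. No fold change is given for these genes.

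Among the beta subunits, Scn3b associates with the alpha subunit without a covalent bond. Its brightest probe (A_51_P184331) read -1.78, -1.89, -1.80 and -1.73 in WT and -2.40, -2.15, -2.33 and -2.59 in the hearts labelled SIRT1 KO. The 4 WT hearts were close together, and every heart labelled SIRT1 KO lay below them. The means were -1.80 ± 0.07 and -2.37 ± 0.18 (SD, n = 4 each). The log2 fold change was -0.57 (SE 0.10, 95% interval -0.791 to -0.341), with an adjusted p of 0.0150 by limma and an exact permutation p of 0.0286. In WT the signal was 1.48 times that of the other group.

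The fall of Scn3b was also present before any scaling, at 278 to 299 intensity units in WT and 143 to 203 in the hearts labelled SIRT1 KO. It is in the middle of the signal range, among 8538 probes of which 0.996% passed as lower and 3.03% as higher. Its call was kept on leaving out each of the 8 arrays in turn, with log2 fold changes of -0.64 to -0.49 and adjusted p-values of 0.0140 to 0.0480 by limma. Of the 11 other settings, 10 kept it, with a smaller log2 fold change of -0.33 under normexp background correction (adjusted p = 0.028, limma). The exception was the methods' one-factor analysis of variance, with an adjusted p of 0.0513, where 2.13% of all probes tested passed.

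The other probes of Scn3b gave no second measurement. A_51_P184340, annotated to the same transcript as the brightest probe, was well above background on 0 WT arrays and on 1 array labelled SIRT1 KO. It read -5.70, -6.69, -6.73 and -6.84 in WT and -6.12, -5.03, -5.62 and -6.21 in the hearts labelled SIRT1 KO, so its means lay in the opposite order, -6.49 and -5.75. Both groups are at the background limit and no fold is given. A_52_P228899, annotated to another transcript of the gene, stayed at background throughout. The fall of Scn3b therefore rests on 1 probe.

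Scn2b, which is joined to the alpha subunit by a disulfide bond, was measured by A_51_P212741. It read -4.20, -4.01, -4.14 and -3.79 in WT and -3.86, -3.67, -3.94 and -4.08 in the hearts labelled SIRT1 KO. Values of the 2 genotypes are interleaved. The log2 fold change was 0.15 (SE 0.12, 95% interval -0.120 to 0.417), with an adjusted p of 0.505 by limma and an exact permutation p of 0.314. The interval holds changes from 0.920 to 1.33 times the WT signal. Scn4b, whose cytoplasmic tail can block the open pore, was not measured here.

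**Figure D2:**
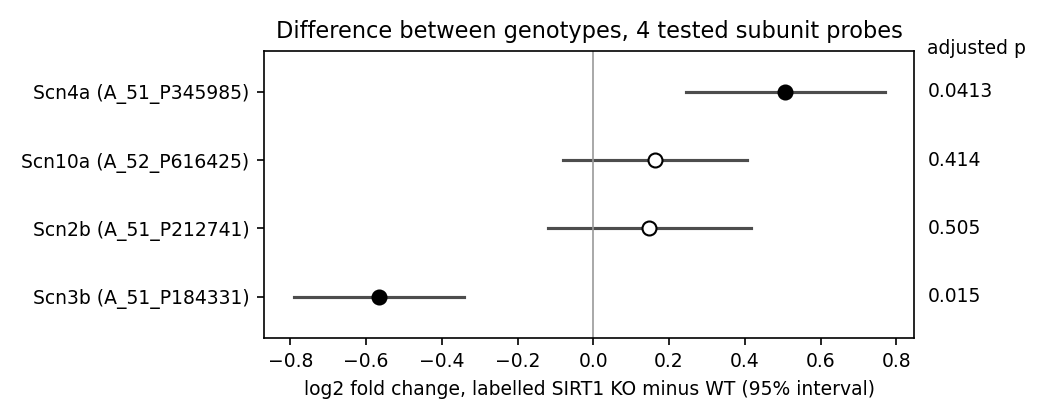
Log2 fold change of the 4 tested subunit probes, hearts labelled SIRT1 KO minus WT, with 95% intervals from limma (n = 4 per group) and the adjusted p at the right. Filled points passed an adjusted p of 0.05: Scn4a at 0.51 and Scn3b at -0.57, on either side of 0, while the intervals of Scn10a and Scn2b span 0.

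The direction of the 2 called subunits was the same under every scaling. Scn10a read -0.06 without scaling, and Scn2b -0.07 without scaling and -0.0021 with quantile normalization. Without scaling the median of all probes tested moved to -0.21, and with scaling to the array median it moved to -0.12. Relative to that median, Scn4a stood at 0.50, Scn10a at 0.15, Scn2b at 0.14 and Scn3b at -0.57 under both, as with the reported scaling. With quantile normalization, where the median of all probes was -0.02, Scn2b stood at 0.02 relative to it. The share of all calls that were higher was 81.4% as reported, 63.9% with quantile normalization, 38.1% with median scaling, 70.4% with cyclic loess and 10.1% without scaling.

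**Figure D3:**
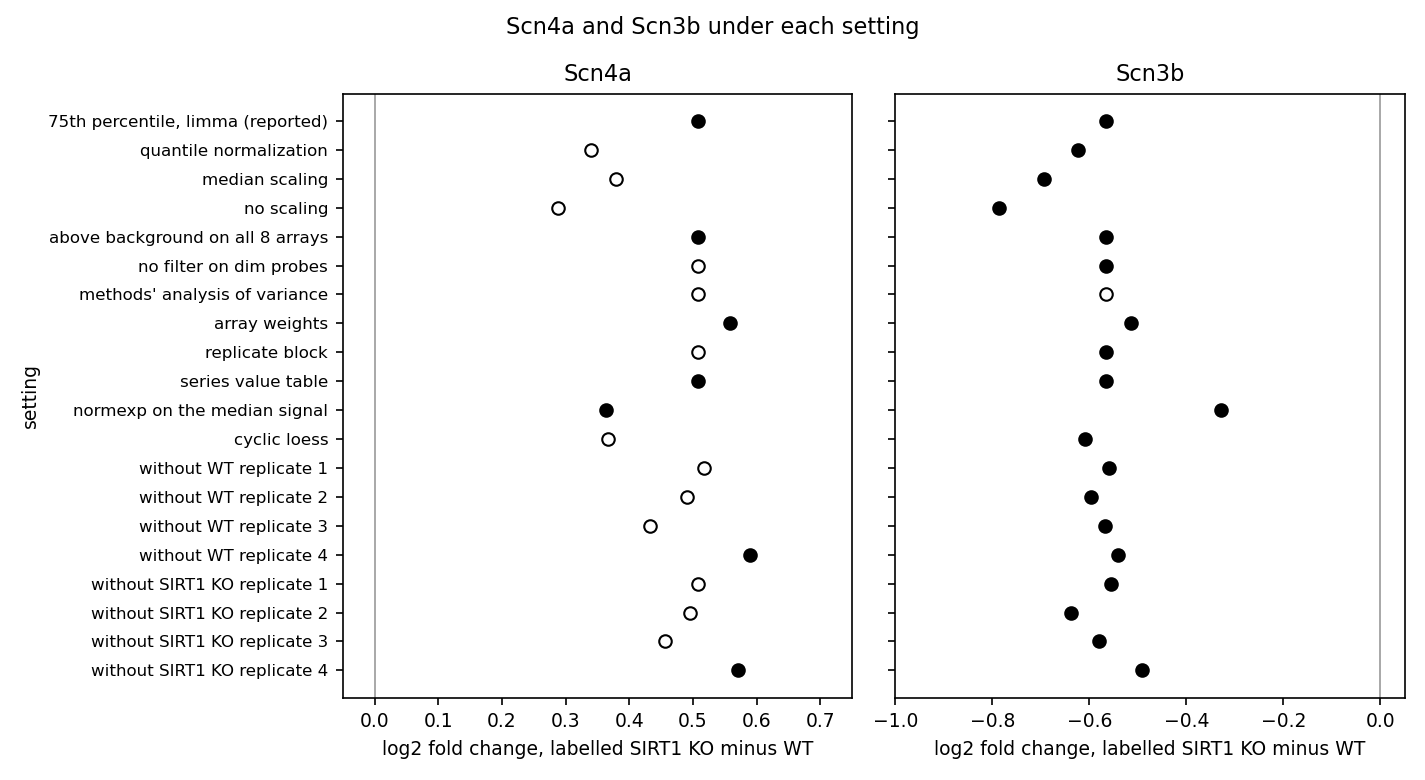
Log2 fold change, hearts labelled SIRT1 KO minus WT, of Scn4a (left) and Scn3b (right) under each setting named on the vertical axis. Filled points have an adjusted p under 0.05. Scn4a stays above 0 and loses its call in 7 of the 11 other settings, and Scn3b stays below 0 and loses it in 1.

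Promoter sequence was read from RefSeq windows of GRCm38.p6, where 6 of the 8 genes had an entry. The Scn4a window is shown because it is the called member with an entry, and the Scn2b window as a measured member that was not called. Each is the 250 bases before the transcript start, 5′ to 3′ on the strand of the gene. Capitals mark the E-box CANNTG, the motif bound by basic helix-loop-helix factors, which include the myogenic ones; the motif reads the same on both strands. Scn4a lies on chromosome 11 (chr11:106349391-106349640, minus strand) and Scn2b on chromosome 9 (chr9:45117626-45117875, plus strand).
Scn4a: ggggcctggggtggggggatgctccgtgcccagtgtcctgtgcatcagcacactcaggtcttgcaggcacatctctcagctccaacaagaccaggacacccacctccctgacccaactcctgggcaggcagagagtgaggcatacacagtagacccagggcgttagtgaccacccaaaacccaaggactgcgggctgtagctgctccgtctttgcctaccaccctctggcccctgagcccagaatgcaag
Scn2b: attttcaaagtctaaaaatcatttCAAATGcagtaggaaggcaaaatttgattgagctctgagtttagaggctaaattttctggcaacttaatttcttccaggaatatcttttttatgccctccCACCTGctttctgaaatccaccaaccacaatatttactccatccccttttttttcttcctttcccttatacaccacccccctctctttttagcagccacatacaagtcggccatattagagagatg
Scn2b holds 2 E-boxes, beginning 226 and 126 bases before the start, and the Scn4a window holds none. The window of Scn10a, also measured and not called, holds 0 as well. Of the remaining windows, that of Scn4b holds 0 and those of Scn1a and Scn7a hold 1 each. Of the 32851 windows of this length in the table, 66.2% hold at least 1.

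The genes beside the 2 called subunits in the RefSeq gene order did not pass the test where they were measured. Next to Scn3b, log2 fold changes were 0.03 for Zfp202, -0.01 for Gramd1b and 0.06 for Clmp. Next to Scn4a they were -0.02 for Cd79b and -0.13 for Icam2. After subtraction of each genotype's mean, the probes whose signal ran most like Scn4a over the 8 arrays belonged to Bcl7c (Pearson r = 0.977), Trpm5 (0.974) and Snx8 (0.970). For Scn3b they belonged to Adnp (0.982), Efhd1 (0.974) and Agps (0.973). These are the highest of all named probes tested and are given as a description. None of these 6 genes passed the test between genotypes.

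Proteins that bind, anchor or modify sodium channels, 24 genes on the array, were followed next. Of the 22 tested by their brightest probe, 1 rose and 0 fell, beside 3.69% and 0.897% (4.58% in all) over the 13594 genes tested in this way. The median log2 fold change was -0.04, against -0.01 over those genes. The gene that rose was Nfasc, neurofascin, an adhesion molecule that gathers sodium channels at nodes of Ranvier. It read -4.75, -5.34, -5.70 and -4.98 in WT and -4.01, -4.16, -4.13 and -4.32 in the hearts labelled SIRT1 KO. Every heart labelled SIRT1 KO lay above all WT hearts and the log2 difference was 1.04 (SE 0.19, adjusted p = 0.0169, limma). It cleared background on 3 WT arrays of 4. With normexp background correction the difference was 0.49, and the call was lost without WT replicate 2 (adjusted p = 0.0568, limma) or SIRT1 KO replicate 1 (adjusted p = 0.0515, limma). Another Nfasc probe (A_52_P331824) was well above background on 0 WT arrays and 3 arrays labelled SIRT1 KO, and A_52_P331829 on no array. Neither was tested. Next by p was Cxadr, the coxsackievirus and adenovirus receptor of the intercalated disc, at -0.43 (adjusted p = 0.153, limma). A list of 7 further channel subunits and leak channels had 2 genes well above background, and 0 passed (1 at an unadjusted p under 0.05 by limma, beside 21.5% of all probes tested). Without scaling, or without the filter on dim probes, 1 passed. Their list's summed level, in multiples of the array's 75th percentile, was 37.5 to 43.5 in WT and 45.5 to 57.7 in the hearts labelled SIRT1 KO, without overlap (exact permutation p = 0.0286). Among all probes tested, 13.7% did not overlap. Of the 7 genes, 5 were well above background on no array, so the sum is weighted to the brightest and does not describe the list. The same sum over the 7 members with a probe, as a description, lay the other way, at 0.488 to 0.538 in WT and 0.421 to 0.486 in the hearts labelled SIRT1 KO. This member sum is weighted to its brightest probe, that of Scn3b (mean -1.80 in WT and -2.37 in the hearts labelled SIRT1 KO). It restates the Scn3b result and is not a fall of the members as a group. Of the 4 tested member probes, 3 read higher.

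Carriers and pumps that bring sodium into cells or remove it, 20 genes on the array, had 16 tested, of which 3 rose and 0 fell, beside 3.69% and 0.897% over all genes, with a median log2 fold change of 0.02. Atp1b2, a beta subunit of the sodium-potassium pump, rose by 0.52 on the log2 scale (adjusted p = 0.0353, limma). Slc8a2, a sodium-calcium exchanger, rose by 0.53 (adjusted p = 0.0243, limma). Slc4a7, a sodium-bicarbonate cotransporter, rose by 0.99 on its brightest probe (adjusted p = 0.00681, limma), but its other probes read -0.16 and 0.08 and did not pass, so the probes of this gene disagree. Atp1b2 and Slc8a2 lost their calls on leaving out most single arrays, with 2 and 3 of 8 such fits passing. Of the 11 other settings, 7 kept the call of Atp1b2 and 5 that of Slc8a2. With median scaling both were lost (adjusted p = 0.0695 and 0.0580, limma). Atp1b2 was also lost without scaling (adjusted p = 0.0837, limma), and Slc8a2 with quantile normalization (adjusted p = 0.0881, limma).

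**Figure D4:**
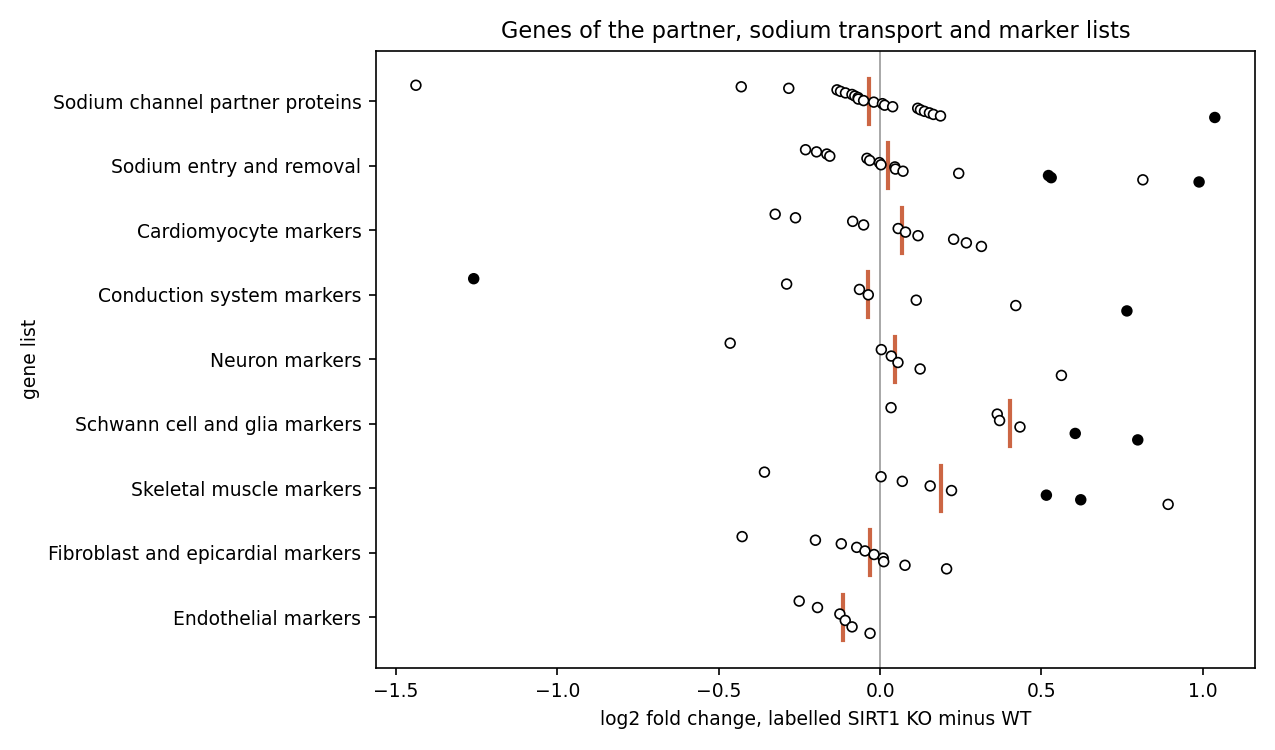
Log2 fold change, hearts labelled SIRT1 KO minus WT, of each tested gene by list, 1 point per gene from its brightest probe. Filled points have an adjusted p under 0.05 and vertical bars are list medians. The partner, sodium transport, cardiomyocyte and neuron medians lie within 0.07 of 0, and the Schwann cell and glia median is the highest at 0.40.

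Scn4a is a skeletal muscle gene and several subunits are neuronal, so markers of cells other than cardiomyocytes are given beside them. Of 15 skeletal muscle markers, 8 were tested, 2 rose and 0 fell, beside 3.69% and 0.897% over all genes, and the median log2 fold change was 0.19. Of these 8 genes, 7 read higher and 1 lower. Tnni2, fast skeletal troponin I, rose by 0.62 (adjusted p = 0.0225, limma) and Myog, myogenin, by 0.52 (adjusted p = 0.0291, limma). The Myog probe belongs to the 8538 dimmest tested, of which 7.75% passed as higher. It cleared background on 3 WT arrays of 4. Both calls were lost, leaving 0, with median scaling or no scaling, and without WT replicate 2, 3 or 4 or SIRT1 KO replicate 1. Myog read 0.28 with quantile normalization (adjusted p = 0.197, limma). Its call was kept in 3 of 10 other settings, and that of Tnni2 in 8 of 11. The summed level of the list, in multiples of the array's 75th percentile, was 166 to 196 in WT and 184 to 223 in the hearts labelled SIRT1 KO (exact permutation p = 0.0857), and the ranges overlap. Myf5, Myf6, Pax7 and Cacng1 were well above background on no array. The part of these markers in the Scn4a result was not tested.

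Of 10 Schwann cell and glia markers, 6 were tested, and 2 rose and 0 fell, beside 3.69% and 0.897% over all genes. Sox10, a transcription factor of neural crest and glia, rose by 0.80 (adjusted p = 0.0199, limma) and Foxd3, a neural crest factor, by 0.60 (adjusted p = 0.0225, limma). Both probes belong to the 8538 dimmest tested, of which 7.75% passed as higher, and Foxd3 cleared background on 3 WT arrays of 4. Another Sox10 probe (A_52_P192625) was well above background on no array. With normexp Sox10 read 0.36 and Foxd3 0.33, and both calls were kept. Both calls were lost without WT replicate 3 or 4. Foxd3 alone lost its call without WT replicate 1 or SIRT1 KO replicate 2 and read 0.40 with quantile normalization (adjusted p = 0.116, limma), and Sox10 alone lost it without WT replicate 2. Foxd3 kept its call in 4 of 10 other settings. Losses included median scaling (adjusted p = 0.0532, limma), no scaling (adjusted p = 0.0524, limma) and cyclic loess (adjusted p = 0.0780, limma). The list's median was 0.40, and its summed level was 2.03 to 2.47 in WT and 2.63 to 3.34 in the hearts labelled SIRT1 KO, without overlap (exact permutation p = 0.0286). Among all probes tested, 13.7% did not overlap. The sum is weighted to the brightest genes of the list, and the dim Sox10 and Foxd3 add little to it. Erbb3, Cdh19 and L1cam were well above background on no array. Nfasc, which glia and neurons also express, moved the same way, and the part of these cells in its value was not tested.

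Of 14 neuron markers, 6 were tested and 0 passed, beside 3.69% higher and 0.897% lower over all genes (2 at an unadjusted p under 0.05 by limma, beside 21.5% of all probes tested), with summed levels of 1.42 to 1.55 in WT and 1.31 to 1.65 in the hearts labelled SIRT1 KO. The smallest p-values were those of Elavl4 (-0.46, adjusted p = 0.0607, limma) and Elavl3 (0.56, adjusted p = 0.0970, limma), RNA-binding proteins of neurons whose log2 fold changes had opposite signs. This count depended on the setting: Elavl4 passed with quantile normalization, median scaling, no scaling and the filter on all 8 arrays (adjusted p = 0.0152 to 0.0483, limma), and Elavl3 with array weights (adjusted p = 0.0418, limma) and normexp (adjusted p = 0.0482, limma). Th, Dbh, Prph, Snap25, Slc18a3 and Chrna3 were well above background on no array.

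Of 10 conduction system markers, 7 were tested, and 1 rose and 1 fell, beside 3.69% and 0.897% over all genes. Cacna1g, a T-type calcium channel of pacemaker cells, rose by 0.76 (adjusted p = 0.0127, limma), and its other probe read 0.45 (adjusted p = 0.0611, limma). Cntn2, an adhesion molecule of Purkinje fibres, fell by 1.26 on the log2 scale (adjusted p = 0.0136, limma), and was well above background on 4 WT arrays and on 2 arrays labelled SIRT1 KO. With normexp it read -0.22 (adjusted p = 0.175, limma), and its call was lost also with the analysis of variance (adjusted p = 0.0714). Other Cntn2 probes (A_52_P365732 and A_52_P651870) were well above background on no array. Summed levels of the list were 24.3 to 28.9 in WT and 24.5 to 26.8 in the hearts labelled SIRT1 KO, and their part in the subunit results was not tested. The 10 cardiomyocyte, 10 fibroblast and epicardial and 6 endothelial markers were all tested and 0 of each passed by the brightest probe, with 2, 1 and 1 at an unadjusted p under 0.05 by limma, which 21.5% of all probes tested reached. A second probe of Myh7, the slow myosin heavy chain, passed at 0.36 (adjusted p = 0.0283, limma), where the brightest read 0.31 (adjusted p = 0.136, limma). The smallest p-values of the others were those of the cardiac troponin gene Tnnt2 at 0.27 (adjusted p = 0.183, limma), the fibroblast marker Pdgfra at 0.21 (adjusted p = 0.127, limma) and the mesothelial marker Upk3b at -0.43 (adjusted p = 0.317, limma). The endothelial receptors Tek and Kdr read -0.25 (adjusted p = 0.229, limma) and -0.19 (adjusted p = 0.273, limma), in a list whose 6 genes all had negative log2 fold changes and whose median was -0.12. Without scaling, where all probes shift by a median of -0.21, 3 of these 6 passed, among them Tek at -0.47 (adjusted p = 0.0249, limma) and Kdr at -0.41 (adjusted p = 0.0397, limma). Pdgfra passed with array weights (adjusted p = 0.0494, limma).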

How the data were processed

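Total RNA (500 ng) of 8 hearts was labelled with Cy3 and hybridised to Agilent whole mouse genome arrays, which the authors scanned and processed with Feature Extraction (version 12.0.0.7 per the file headers). The deposited processed signal, an intensity in linear units already background-corrected, was used. The deposited series table holds the same values in 100% of spots. The deposited flags for control type, background and outliers were used as filters. Control and outlier spots were left out, spots of a probe were averaged, and log2 values were centred on each array's 75th percentile. Probes that the software flagged as well above background on 4 or more arrays were tested with limma 3.58.1 in R 4.3.3 (lmFit, eBayes, Benjamini-Hochberg over all 25615 probes, adjusted p of 0.05), without covariates. Single values had an exact two-sided permutation test over arrays (70 splits). The procedure was tested on simulated data.

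The members and gene lists were chosen with earlier results of these data known. Genes were named by rule: all members, list genes past the threshold and the 2 with the smallest p in each list, the 3 probes running most like each called member, and Sirt1. The list of further subunits is given by counts only and its genes are not reported here. A gene of several probes was represented in lists by its brightest. The number of arrays limits the precision. p-values measure the spread between the 4 embryos of a group on 1 slide. Alternatives were other scalings, filters, tests, a replicate block, array weights, the series table and leaving out each array.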

Additional observations from a re-analysis of the deposited data

Results flagged for a closer look

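In 62 groups of 4 arrays, over the subunit and named list probes, 4 held an array far from the other 3 (a gap taking up more of the range than Dixon's 95% limit for 4 values), and chance gives about 1 in 20 such groups. On the dim Scn3b probe A_51_P184340, WT replicate 1 read -5.704 and the nearest WT heart -6.686, neither marked as well above background. For Cxadr, WT replicate 2 read 1.06 and the nearest 0.554. For Slc4a7, WT replicate 1 read 2.414 and the nearest 2.958. For Elavl4, WT replicate 3 read -2.215 and the nearest -1.843. The probe behind the Scn3b call and that of Scn4a held no such array.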

How the results depend on the processing

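Slide, scan and genotype cannot be told apart, and 6 of the 10 subunit probes were too dim to test. Of the 2 subunit probes called, 1 remained, Scn3b, with quantile normalization, median scaling, no scaling, no filter on dim probes, the replicate block and cyclic loess, and 0 with the methods' analysis of variance, where the log2 fold changes stayed 0.51 for Scn4a (adjusted p = 0.0998) and -0.57 for Scn3b (adjusted p = 0.0513). With 1 array left out, 1 to 2 were called. Scn4a was at 0.34 with quantile normalization, 0.38 with median scaling (adjusted p = 0.0811, limma), 0.29 without scaling, 0.51 without a filter (adjusted p = 0.0832, limma), and 0.37 with cyclic loess (adjusted p = 0.161, limma). Its range with 1 array left out was 0.43 to 0.59. Scn3b was at -0.33 with normexp on the median signal, where its call was kept. Signs differed for Scn10a without scaling (-0.058), Scn2b without scaling (-0.071) and with quantile normalization (-0.0021), and the fibroblast marker Pdgfra without scaling (-0.014), where all probes shift by a median of -0.21; relative to that median Scn10a was at 0.15, Scn2b at 0.14 and Pdgfra at 0.20, and with quantile normalization Scn2b at 0.02. Partner and sodium transport genes past the threshold numbered 4 as reported, 2 with median scaling, 9 without scaling, 1 with the analysis of variance, 7 with normexp and 1 to 5 with 1 array left out. Marker genes numbered 6 as reported, 0 with the analysis of variance and 2 to 6 with 1 array left out. Over all probes the count was 1250 as reported, 546 with the analysis of variance, 6352 without scaling, 2633 with normexp, 2277 with array weights, and from 657 (WT replicate 3 left out) to 1825 (SIRT1 KO replicate 3 left out). The cause of these changes was not tested.

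Replicate numbers are places on the slide. Same-numbered hearts deviated from their group means with correlations of 0.204, 0.207, 0.0562 and 0.141, so with 1 of 4 under 0.1 they were not treated as pairs, although every heart correlated best with its own number. With the replicate block, calls over all probes went from 1250 to 1185, and the adjusted p by limma was 0.0976 for Scn4a (0.51) and 0.0480 for Scn3b (-0.57). Normexp on the mean signal was not run because the scanner columns analysed here hold the median signal and not the mean; normexp on the median signal and cyclic loess were chosen after seeing the data.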
